A study of Mus musculus with 10 samples.

Results

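The replication-dependent histone genes were taken as the protein-coding genes of the GENCODE M21 mouse annotation whose symbol begins with Hist1h, Hist2h, Hist3h or Hist4h. They were 67 of 21951 protein-coding genes. Of these, 54 were Hist1 genes on chromosome 13, 10 were Hist2 genes on chromosome 3, 2 were Hist3 genes on chromosome 11 and 1, Hist4h4, was on chromosome 6. By product, 6 encoded the linker histone H1, and 18, 18, 12 and 13 encoded the core histones H2A, H2B, H3 and H4.

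These genes supply the histones that package newly copied DNA, and their transcription and mRNA levels rise in S phase. They lie in clusters, have no introns as a rule, and many H2A and H2B genes are arranged head to head around a shared promoter. Their mRNAs end in a stem-loop instead of a poly(A) tail, which is bound by Slbp and cut with the help of the U7 snRNP, while Npat, a substrate of cyclin E and Cdk2, activates their transcription in nuclear bodies that form at the clusters.

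The data were ChIP-seq peak lists for RNA polymerase II (Pol II), for Qki-5, the quaking isoform that stays in the nucleus and is best known for binding RNA, and for Srebp2, a transcription factor of sterol synthesis genes, each in wild-type (WT) and Qk-/- cells. The cells were labelled differentiated oligodendrocytes of an FvB/C57BL6 hybrid strain, made from neural stem cells in medium with the thyroid hormone T3, at passage 7 for Qki-5 and Pol II and passage 8 for Srebp2. In the study's methods, neural stem cells of newborn Nestin-CreERT2;Qk L/L mice lost exon 2 of Qk in culture after 4-hydroxytamoxifen. There was 1 library per antibody and genotype, so no difference between genotypes could be tested. A fold value below is the enrichment over input at the peak summit, and a percentile is the rank of a gene's strongest peak among all bound protein-coding genes of the same list. The read totals behind the lists are unknown, so fold values of different lists are set side by side without a comparison of their size, and percentiles rest on lists of different length.

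The lists held 32280 WT and 12835 Qk-/- Pol II peaks and 7539 WT and 427 Qk-/- Qki-5 peaks. The WT Qki-5 and Srebp2 lists used here are shorter than the peak numbers in the study's text, so the shares below hold for these lists only. Of all protein-coding genes, 54.1% had a Pol II peak at the promoter in WT and 46.5% in Qk-/- cells. Of 10 oligodendrocyte markers, Pol II was called at Cnp, Olig1 and Olig2 in both genotypes and at no other, with Mbp, Mog, Mag, Mobp, Myrf and Sox10 among those without a peak. It was called at 6 of 6 neural stem cell markers in both genotypes, with Vim at 92.9-fold in WT, and at 4 of 5 astrocyte, 2 of 6 neuronal and 0 of 5 microglial markers in WT. Apart from Cnp, the myelin genes named here were thus without a Pol II peak, and the peaks of the Qki-5 and Pol II lists carry names that begin with mNSC. What part the makeup of the cultures had in the values below was not tested.

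The 3-prime ends of the genes are shown first, because the stem-loop is typical of replication-dependent histone mRNAs. The genes themselves were taken by symbol, and a stem-loop alone does not settle their class. A search of the 150 bases after each stop codon in GRCm38 (mm10) looked for 16 bases that begin with GG, end with CC, hold TTT at the start of a loop of 4 and close a stem of 6 base pairs. It found a match at 63 of 67 genes, 22 to 59 bases after the stop codon (median 31), in 6 forms. Each form is given with 5 flanking bases in lower case and the stem-loop in capitals, on the coding strand, with the position of the 16 bases.

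Hist1h1e, chr13:23621782-23621797, minus strand: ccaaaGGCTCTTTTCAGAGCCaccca
Hist2h2ab, chr3:96220333-96220348, plus strand: aaaaaGGCTCTTTTAAGAGCCaccaa
Hist2h2ac, chr3:96220418-96220433, minus strand: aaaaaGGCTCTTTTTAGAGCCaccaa
Hist1h4k, chr13:21750150-21750165, minus strand: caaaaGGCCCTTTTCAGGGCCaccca
Hist2h4, chr3:96262939-96262954, minus strand: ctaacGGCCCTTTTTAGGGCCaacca
Hist1h4j, chr13:21735437-21735452, plus strand: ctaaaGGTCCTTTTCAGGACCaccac

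The form of Hist1h1e was the most frequent, at 41 genes of the H1, H2A, H2B and H3 classes, and the form of Hist2h2ab was found at 9 genes. The form of Hist2h2ac was found at that gene alone. The forms with a GGCCC or GGTCC stem, shown for Hist1h4k, Hist2h4 and Hist1h4j, were carried by 8, 2 and 2 genes, all of the H4 class. No match was found at Hist1h2an, Hist1h3g, Hist1h4a and Hist2h2be, which says only that these letters were not in that window.

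Pol II was called at nearly every one of these genes. In WT cells, 65 of 67 had a Pol II peak within 2 kb of a transcription start site (TSS), a share with an exact Clopper-Pearson 95% interval of 89.6 to 99.6%, against 54.1% of all protein-coding genes. In Qk-/- cells 63 of 67 had one, 94.0% against 46.5%. Such intervals cover counting error only, and genes that share a peak are not independent. With the peak required to cover the TSS itself, the counts were 60 in WT and 53 in Qk-/- cells, against 50.6% and 40.7% of all genes. The members without a Pol II peak in either list were Hist1h2ba and Hist1h2aa, the H2B and H2A genes of a pair known for expression in testis, which stand apart from the other Hist1 genes.

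The Pol II peaks were also high in the list. The median WT fold of the 65 bound genes was 35.6, against 15.8 over all bound protein-coding genes, and their median percentile was 93.1. Of the 65, 39 were in the top 10% of bound genes, 12 in the top 1% and 8 below the median. In the Qk-/- list the median was 25.6-fold against 10.2-fold for all bound genes, with a median percentile of 95.1 and 41 genes in the top 10%. Neighbours often counted the same peak, so these 65 genes do not stand for 65 measurements: they were covered by 48 distinct peaks. With each peak given only to the gene of the nearest TSS, 41 of the 67 genes kept a WT peak.

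**Figure D1:**
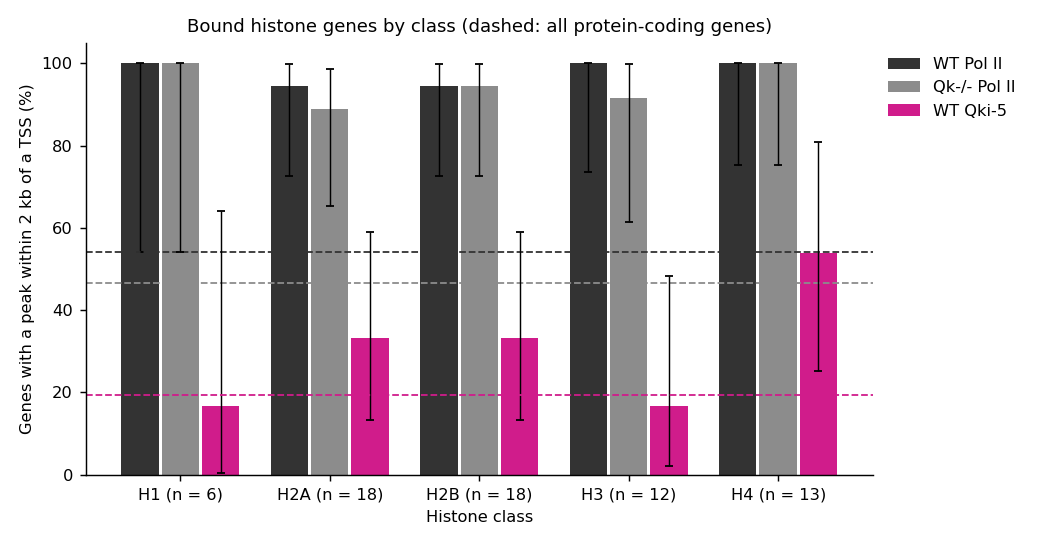
Share of histone genes of each class (x axis, number of genes in brackets) with a peak within 2 kb of a TSS, in percent (y axis), for WT Pol II, Qk-/- Pol II and WT Qki-5. Error bars are exact 95% binomial intervals for counting error only, and dashed lines are the shares of all protein-coding genes (54.1%, 46.5% and 19.4%). The Pol II bars of every class stand above the dashed lines, while those of Qki-5 run from 16.7% for H1 and H3 to 53.8% for H4.

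To leave out peaks that reached only the surroundings of a gene, the fold was also read for the peak over the start codon. A wide peak can still have its summit at a neighbour, as at 21 of the 64 genes so covered in WT and 12 of 55 in Qk-/- cells. A WT Pol II peak covered the start codon of 64 genes, with 6.13-fold to 77.5-fold enrichment and a median of 33.4. By class the WT medians were 48.7 for H4, 41.5 for H3, 33.8 for H1, 28.7 for H2A and 28.1 for H2B. In Qk-/- cells 55 start codons were covered, with class medians of 28.5 for H1, 25.8 for H4, 25.5 for H3, 13.1 for H2A and 10.6 for H2B. The H2A and H2B genes had the lowest medians in both lists, and the ranges of all classes overlapped. Over the 43 genes in WT to which the summit itself was nearest, the medians were 48.7 for H4, 33.8 for H1, 31.2 for H3 and 30.8 for H2A, and that of H2B was the lowest.

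By cluster, the Hist2 genes had the highest median at the start codon in each Pol II list, 51.0-fold in WT and 43.4-fold in Qk-/- cells over 10 of 10 genes. The Hist1 genes had 31.2-fold over 51 genes and 14.0-fold over 42. The Hist1 genes fell into 4 blocks that lay more than 100 kb apart. The block from Hist1h2bl to Hist1h2br (chr13:21715763-21837530, 18 genes) and the block from Hist1h4h to Hist1h1a (chr13:23531050-23764406, 29 genes) had WT medians of 39.5-fold and 28.7-fold. The small block from Hist1h2ah to Hist1h2bj (5 genes) held a high peak at Hist1h4i and low ones at its H2A and H2B genes, and the testis pair, a block by itself, held none.

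**Figure D2:**
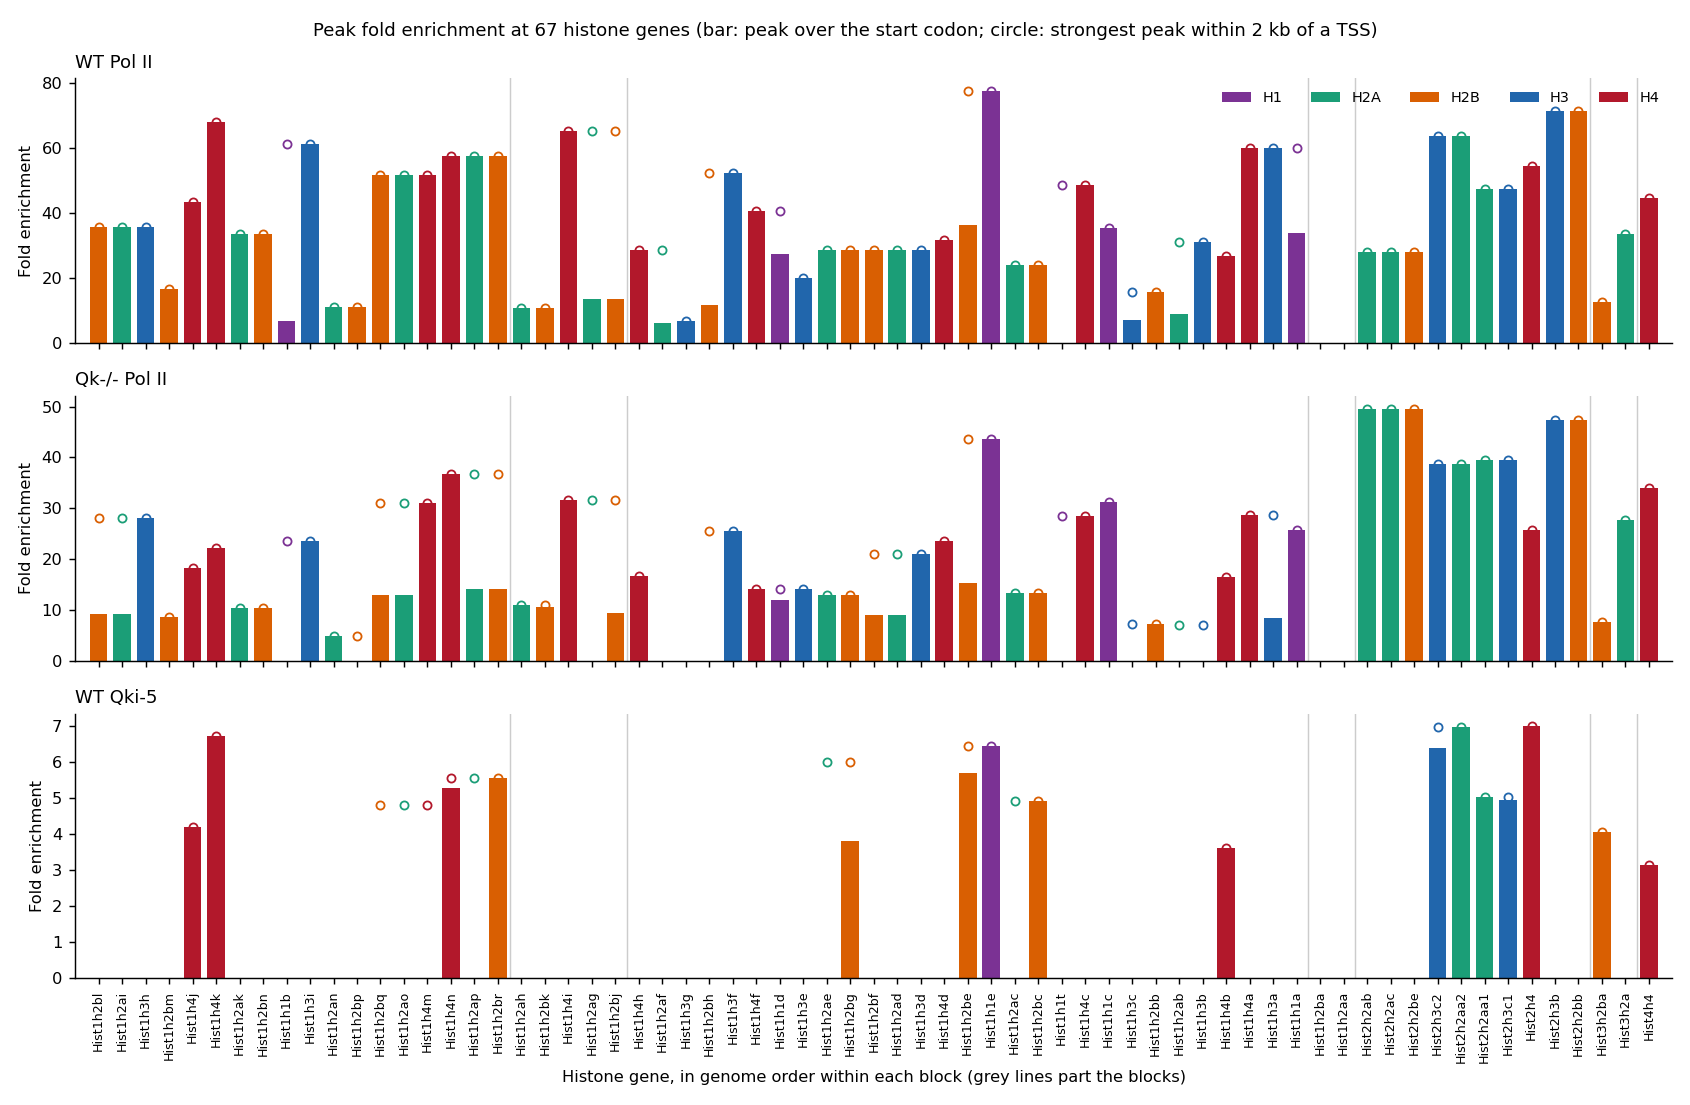
Fold enrichment (y axis, linear, with its own scale in each panel) at the 67 genes (x axis, in genome order within blocks) for WT Pol II, Qk-/- Pol II and WT Qki-5. Bars give the peak over the start codon, circles the strongest peak within 2 kb of a TSS, and colours the histone class. A circle above its bar marks a gene whose strongest promoter peak did not cover the start codon. That peak was a neighbour's for Hist1h1b, Hist1h2ag and Hist1h2af in WT Pol II. It could also be the gene's own, as for Hist1h3b in Qk-/- Pol II and Hist1h4m in WT Qki-5.

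The strongest WT Pol II peak lay at Hist1h1e, a linker histone gene (chr13:23620697-23622879). It reached 77.5-fold, rank 42 of 32280 peaks, and its counterpart in Qk-/- cells reached 43.7-fold, rank 96 of 12835. Next came the peak shared by Hist2h3b and Hist2h2bb, with 71.4-fold in WT and 47.3-fold in Qk-/- cells, and the peak of the H4 gene Hist1h4k, with 68.1-fold and 22.2-fold. The peak of the H4 gene Hist1h4i reached 65.4-fold in WT and 31.6-fold in Qk-/- cells, and that of the H3 and H2A genes Hist2h3c2 and Hist2h2aa2 63.7-fold and 38.7-fold. The 5 highest peaks thus covered start codons of H1, H2A, H2B, H3 and H4 genes. None had its summit nearest to an H3 gene: those over Hist2h3b and Hist2h3c2 had it at Hist2h2bb and Hist2h2aa2.

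In the Qk-/- list the order began with the Hist2 genes. The peak over Hist2h2ab, Hist2h2ac and Hist2h2be (chr3:96219005-96221952) was the highest, with 49.6-fold and rank 47, and the WT peak there was 28.1-fold with rank 1596. This single peak put its 3 genes at percentile 85.2 in WT and 99.6 in Qk-/- cells. The peak of Hist2h2aa1 and Hist2h3c1 was 39.4-fold in the Qk-/- list and 47.5-fold in the WT list. A single library per genotype gives no replicate check of such values.

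The assignment to promoters hid several weak genes behind strong neighbours. The linker histone gene Hist1h1b had 61.1-fold by its promoter window, from the peak of the H3 gene Hist1h3i, and 6.64-fold over its own start codon. Hist1h2af took 28.5-fold from the H4 gene Hist1h4h and had 6.13-fold of its own, and Hist1h2ag and Hist1h2bj took 65.4-fold from Hist1h4i and had 13.4-fold over their start codons. The testis linker histone gene Hist1h1t had a peak only through its H4 neighbour Hist1h4c, and no Pol II peak covered its start codon.

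Hist1h2be was an extreme case of a borrowed peak. Its annotated 5-prime end lay 35168 bases upstream of its start codon, beside Hist1h1e, so that its window held the 77.5-fold peak of that gene. A separate WT Pol II peak of 36.3-fold (chr13:23584459-23586163) covered the Hist1h2be start codon itself, as did a Qk-/- Pol II peak of 15.2-fold and a WT Qki-5 peak of 5.70-fold.

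The peaks were wide and, at these short genes, often covered the whole coding sequence. The 48 WT Pol II peaks had a median width of 1827 bp, against 1038 bp for all peaks at protein-coding promoters, and 22 of them, 45.8%, were over 2 kb, against 18.7%. Start and stop codon were each under a WT peak at 59 of 67 genes and each under a Qk-/- peak at 44. The codons were looked up separately, and at Hist1h1b they lay under different WT peaks. For H4 this was so at 13 of 13 genes in each list. The coding sequences were only 312 to 672 bp long, less than the median width of all promoter peaks. No share of all genes was computed for this, so the counts are not read as a trait of the peaks. The stem-loop lay under a WT Pol II peak at 52 of 63 genes and under a Qk-/- Pol II peak at 40, and no Qki-5 peak covered one.

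**Figure D3:**
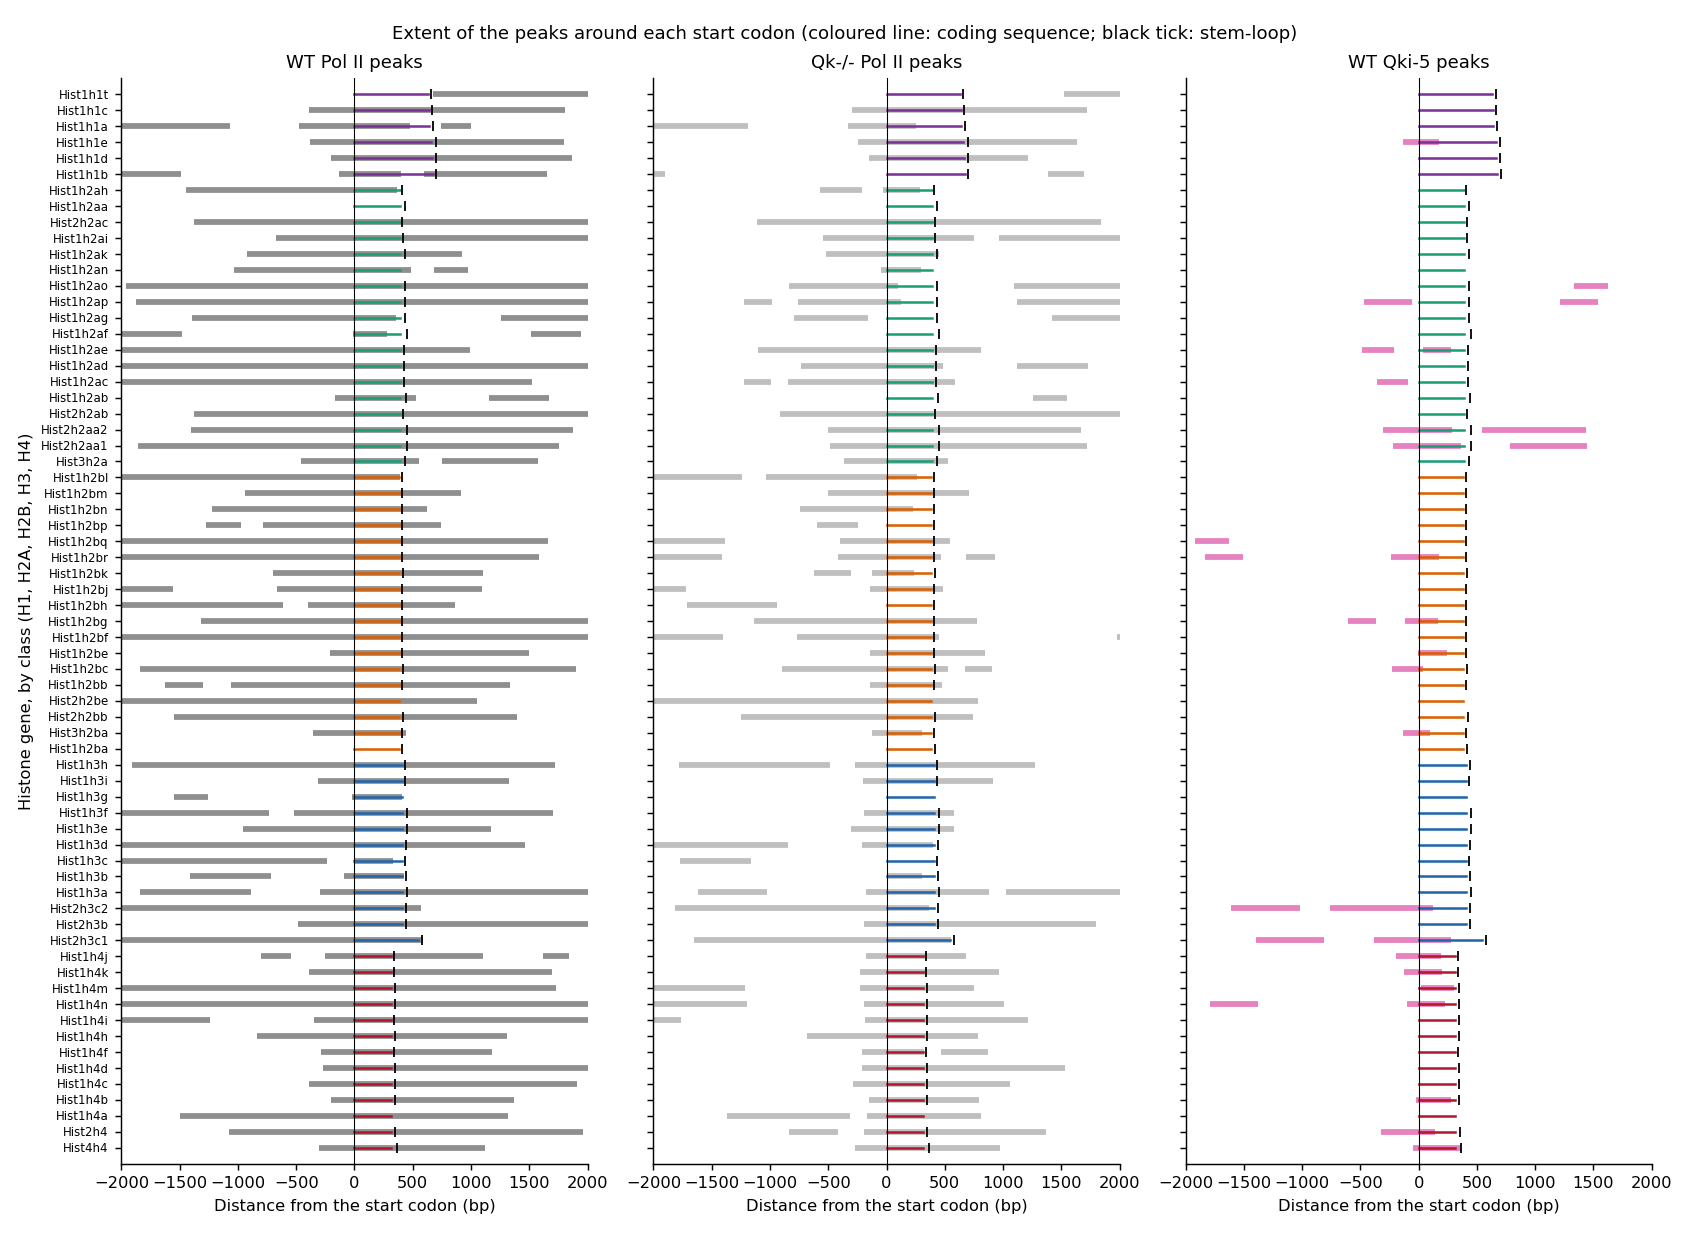
Extent of the peaks (grey for Pol II, pink for Qki-5) around the start codon of each gene, by class, with the distance in bp along the direction of transcription on the x axis. Coloured lines are coding sequences and black ticks stem-loops, which lie under WT Pol II peaks at 52 genes and under no Qki-5 peak.

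Neighbouring histone genes often shared peaks. Of the 48 WT Pol II peaks, 30 reached the promoters of 2 or more histone genes, or 62.5%, while 12.8% of all promoter peaks reached 2 or more protein-coding genes. In the Qk-/- list 32 of 48 did so, 66.7% against 13.8%. The 2 kb windows of close neighbours overlap, so a peak near such genes counts for several of them whatever its width. The narrower WT Qki-5 peaks, with a median of 329 bp, gave 64.7% against 13.6%. These shares therefore reflect gene spacing and are no measure of how far a peak extends. The widest WT peak, 7155 bp with 28.7-fold (chr13:23570115-23577269), covered Hist1h2ae, Hist1h2bg, Hist1h2bf, Hist1h2ad and Hist1h3d, and in Qk-/- cells 3 separate peaks lay there. Those at the H2A and H2B pairs had 12.9-fold and 9.01-fold, and the highest was at the H3 gene Hist1h3d.

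The 12 head-to-head pairs of an H2A and an H2B gene had 278 to 334 bases between their start codons, with a median of 299. A single WT Pol II peak spanned both start codons of 11 pairs and a single Qk-/- peak those of 8. The pair without a spanning peak in WT was Hist1h2ba and Hist1h2aa. The WT summit lay between the start codons in 1 pair, Hist1h2ag and Hist1h2bj, and there only 1 bp before the Hist1h2bj start codon. In no pair did a Qki-5 peak span both start codons. In 4 of the 11 the summit of the spanning peak lay at neither gene of the pair, as for Hist1h2ap and Hist1h2br, whose 57.7-fold peak had its summit at the H4 gene Hist1h4n. The lowest fold was 10.9, at Hist1h2ah and Hist1h2bk.

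Promoter letters differed between classes. Of the 67 genes, 62 were matched by gene ID to a RefSeq promoter window of 300 bases (GRCm38.p6, 250 before the start to 50 after), which was searched on both strands. The octamer ATTTGCAT, the site of Oct-1 (the product of Pou2f1), was in 14 of 62 windows and in 1.74% of all 32851 windows, and the 14 were 7 of 18 H2A and 7 of 16 H2B genes. CCAAT, the site of NF-Y, was in 53 windows, 85.5% against 37.4%, at all 50 genes of the H1, H2A, H2B and H3 classes and at 3 of 12 H4 genes. TATAAA was in 35 windows, 56.5% against 13.6%. AAACACA, an element known from H1 genes, was in 9 windows, 14.5% against 7.18%, which were those of 5 of 6 H1, 2 H2A and 2 H2B genes. A match describes letters only, and overlapping windows of a head-to-head pair can hold the same site.

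Octamers are shown for 2 head-to-head pairs and for Hist2h2bb, a gene of the second highest WT Pol II peak, on the strand of the named gene with the octamer in capitals. The first site is in the windows of both genes of its pair and lies at a promoter with Pol II and Qki-5, the second at the pair without any peak.

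Hist1h2bg (shared with Hist1h2ae), chr13:23571331-23571358, plus strand: tgagtcccttATTTGCATagaacctcta
Hist1h2ba (shared with Hist1h2aa), chr13:23934303-23934330, minus strand: aattccccttATTTGCATgcacccagca
Hist2h2bb, chr3:96269642-96269669, plus strand: gtgaaacctcATTTGCATacaagctcta

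Qki-5 was called at a minority of the genes. A WT Qki-5 peak lay at 22 of 67, 32.8% (95% interval 21.8 to 45.4%) against 19.4% of all protein-coding genes. As a share of Pol II-bound genes this was close to the background, with 22 of 65 or 33.8% against 34.6%. Among genes whose WT Pol II fold was at or above the histone median, 16 of 35 histone genes had Qki-5, 45.7%, against 65.4% of all such genes. Over the TSS itself it was 15 of 67, 22.4% against 13.6%. The count was 13 with peaks of at least 5-fold only and 11 without peaks of mostly repeated sequence. In the Qk-/- Qki-5 list 0 of 67 had a peak, which allows a share of up to 4.48% (3 counts of 67), against 0.87% of all genes.

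The Qki-5 peaks were of middling height. Their median fold over the 22 genes was 5.30, against 5.15 for all bound genes, with a median percentile of 53.0 and no gene in the top 10%. The highest lay at the H4 gene Hist2h4 (6.99-fold, rank 1250 of 7539, chr3:96263167-96263624), at Hist2h2aa2 and Hist2h3c2 (6.97-fold), at Hist1h4k (6.72-fold), at Hist1h1e (6.44-fold) and at Hist1h2ae and Hist1h2bg (6.01-fold). The lowest was that of Hist4h4, with 3.15-fold. By class, 7 of 13 H4, 6 of 18 H2A, 6 of 18 H2B, 2 of 12 H3 and 1 of 6 H1 genes had a Qki-5 peak. By cluster they were 15 of 54 Hist1, 5 of 10 Hist2 and 1 of 2 Hist3 genes and Hist4h4, and the 5 genes from Hist1h2ah to Hist1h2bj had none.

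The Qki-5 peaks lay within reach of Pol II peaks, as most Qki-5 promoter peaks did. The 22 genes shared 17 peaks with a median width of 329 bp, against 369 bp for all Qki-5 promoter peaks. All 17 overlapped a WT Pol II peak, as did 94.4% of all Qki-5 promoter peaks, with a median of 53 bp between the summits at the histone genes. Each Qki-5 summit was within 500 bp of a histone start codon. With the separate peak of Hist1h2be counted in, a Qki-5 peak covered the start codon of 16 genes, 6 of them H4 genes, 5 H2B, 2 H2A, 2 H3 and 1 H1. The bound H2A genes Hist1h2ao, Hist1h2ap, Hist1h2ae and Hist1h2ac had it beside the start codon or at a neighbour instead. Median WT Pol II fold was 51.6 at the 22 genes with Qki-5 and 33.4 at the 43 Pol II-bound genes without, with ranges of 12.7 to 77.5 and 6.64 to 71.4 that overlapped. These are folds by promoter window, so genes that share or borrow a peak repeat its value. Over all protein-coding genes, Qki-5 was at 34.6% of those with Pol II. It was at 65.4% of those at or above the histone median fold, so the direction is not particular to histone genes.

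The RNA element of Qki, ACTAAC or ACTAAT, was in 12 of 62 histone promoter windows, 19.4% against 11.6%, in 4 of 20 with a Qki-5 peak and 8 of 42 without. These windows are not independent. Hist1h2ae and Hist1h2bg share the same site, as do Hist1h2ai and Hist1h2bl, and the sites of Hist2h3c1 and Hist2h3c2 have identical letters. Within 150 bp of the summit it was in 3 of 17 Qki-5 peaks at histone genes and in 8.28% of all Qki-5 peaks. Srebp2 was called at 0 of the 67 genes in both genotypes, against 0.292% of all genes in WT and 0.118% in Qk-/- cells. With only 64 and 26 genes bound in all, a count of 0 among 67 says little.

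**Figure D4:**
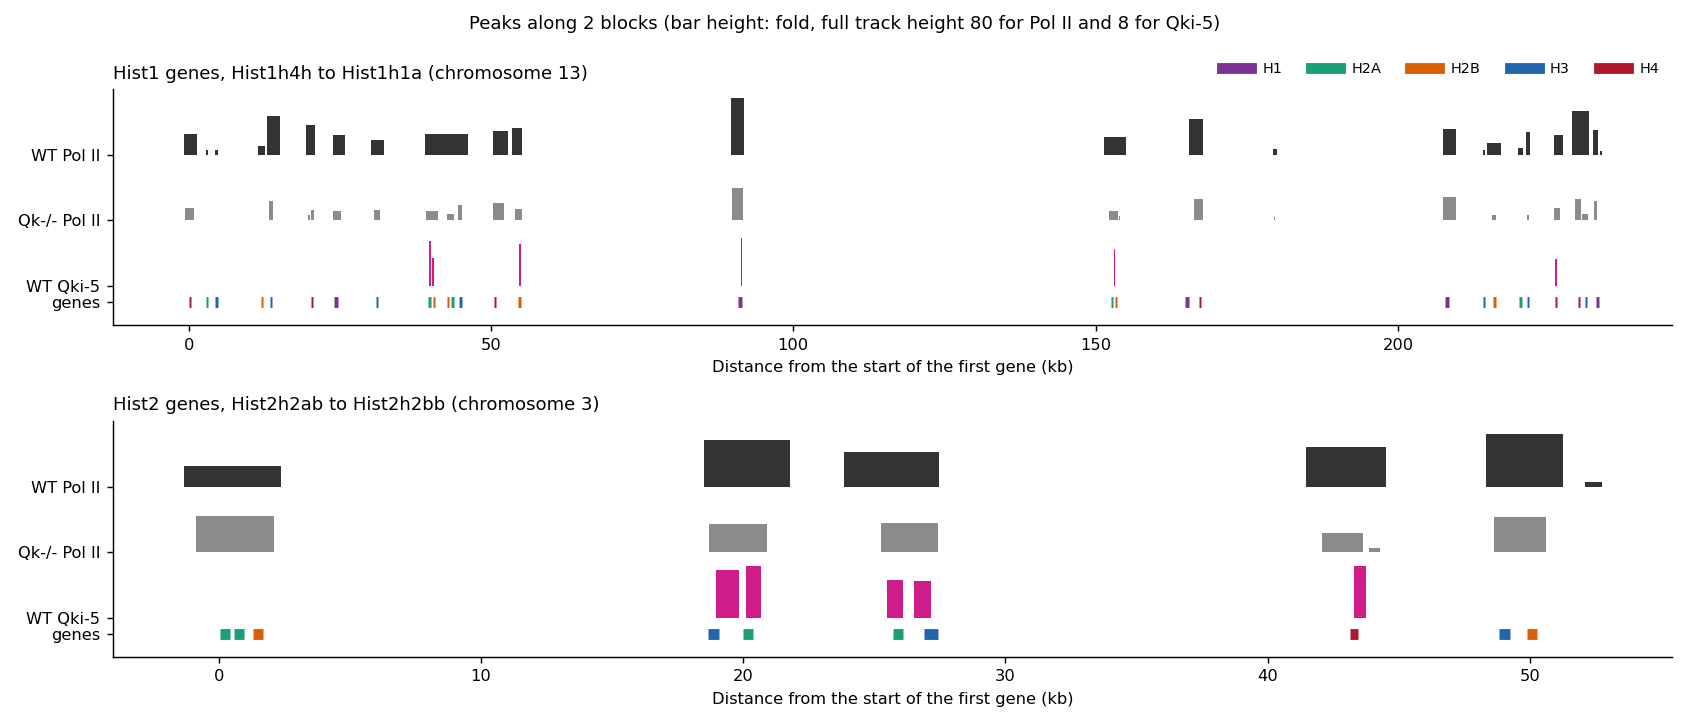
Peaks along the Hist1 block from Hist1h4h to Hist1h1a and along the Hist2 genes, with the distance from the start of the first gene in kb on the x axis. Bar height is the fold on a linear scale whose full height is 80 for Pol II and 8 for Qki-5, and the lowest row gives the coding sequences by class. Pol II peaks follow the genes, while Qki-5 peaks cover the start codons of 5 genes in each of these blocks.

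From WT to Qk-/- cells the Pol II calls were kept at most genes. Of the 65 genes bound in WT, 63 were called in Qk-/- cells, 96.9% against 85.7% of all WT-bound genes. Among genes at or above the histone median fold it was 35 of 35, against 99.3% of all such genes, so most genes as high as these were called again. With the peak over the TSS in both lists it was 53 of 60, 88.3% against 80.1%. At the start codon it was 55 of 64, or 85.9%, with 13 of 13 H4 genes, 15 of 17 H2B, 14 of 17 H2A, 9 of 12 H3 and 4 of 5 H1. No share of all genes was computed at the start codon to set beside it.

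The 2 genes called by promoter in WT alone were Hist1h2af and Hist1h3g, neighbours with peaks of their own of 6.13-fold and 6.64-fold. At the start codon the genes covered in WT alone were these and Hist1h1b, Hist1h2bp, Hist1h2ag, Hist1h2bh, Hist1h3c, Hist1h2ab and Hist1h3b, with WT folds of 6.13 to 13.4 except for Hist1h3b with 31.2. A Qk-/- peak at Hist1h3b began at chr13:23752389, just past its start codon at 23752380, with its summit 1 bp from the WT summit. Of the 48 WT peaks, 37 were overlapped by a Qk-/- peak, 77.1% against 66.3% of all WT promoter peaks, and the 11 that were not had 3.60-fold to 11.7-fold. The strongest Qk-/- peak overlapping each was shorter than the WT peak in 37 of 37 cases, and the median width over the list was 981 bp against 1827 bp. All promoter peaks also had a lower median in the Qk-/- list, 646 bp against 1038 bp. Summits moved by a median of 13 bp, and 34 of 37 by no more than 150 bp.

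Percentiles were close at most genes and far apart at a few. Of the 63 genes bound in both lists, 44 had percentiles within 10 points of each other, against 37.1% of all genes bound in both. Many were near the top of the scale, with 39 of 65 in the WT top 10%, where little room is left to differ, so nothing is read from this share. The largest differences downwards were at Hist1h2ab and Hist1h3b, from 89.3 to 22.3, and at Hist1h2ak and Hist1h2bn, from 91.3 to 50.7. Those upwards by over 10 points were at Hist1h2ah and Hist1h2bk, from 29.3 to 55.5, and at the 3 Hist2 genes named above. Both percentiles of Hist1h2ab were those of the peaks at Hist1h3b. Over its own start codon Hist1h2ab had 8.98-fold in WT and no Qk-/- peak. In all, 10 of the 63 were lower by more than 20 points in the Qk-/- list, against 25.3% of all genes. Over the 35 pairs of overlapping strongest peaks, Spearman's rho between the WT and Qk-/- fold was 0.71, a description across peaks of the same 2 libraries.

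**Figure D5:**
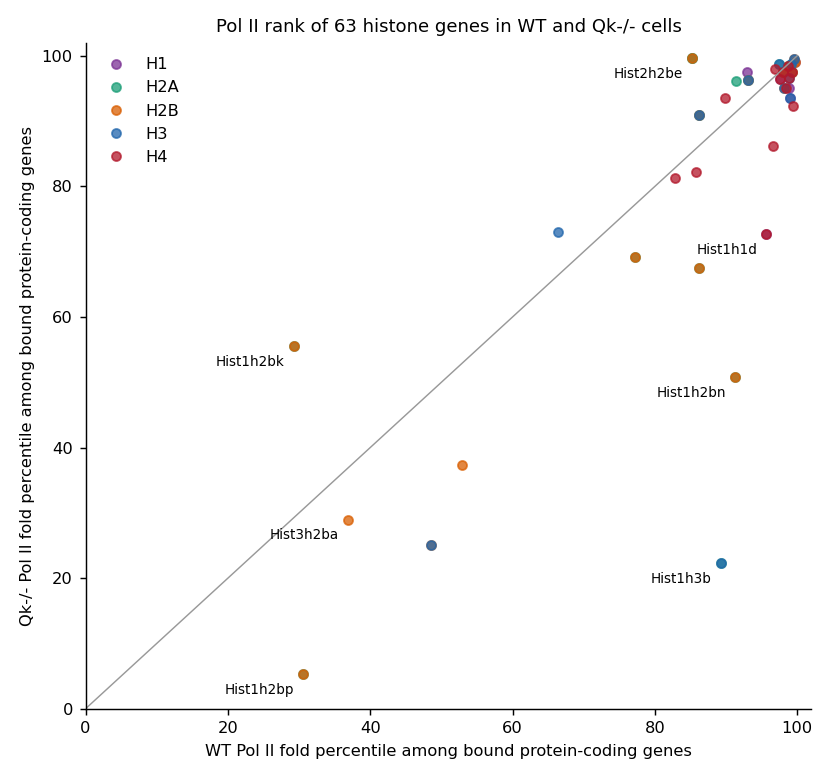
Percentile of the strongest Pol II peak of each of the 63 genes bound in both lists, WT on the x axis and Qk-/- on the y axis, by histone class, with the line of equal rank. Points of genes that share a peak coincide. Most lie in the upper right corner, and Hist1h3b, Hist1h2bn and Hist1h2bp lie well under the line.

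Many of these genes are near copies of each other, and how reads with several matches were placed is not given in the sources used here. Counting 50-base windows that occur again in the mouse chromosomes, a median of 75.3% of the coding sequence of the 67 genes was repeated, while 33 genes had any repeated window in the 500 bp upstream of the start codon. The upstream sequence of Hist1h2bq and Hist1h2ao was repeated in full, as was that of their copies Hist1h2br and Hist1h2ap. The WT Pol II peaks over those copies were 51.6-fold and 57.7-fold. More than 50% of the windows were repeated in 9 of 48 WT Pol II peaks, 13 of 48 Qk-/- Pol II peaks and 9 of 17 Qki-5 peaks. The Qki-5 peaks of Hist3h2ba, Hist2h4, Hist4h4 and Hist1h2bc held no repeated window and that of Hist1h1e 1.53%. The Qk-/- peak of Hist1h3b behind the largest difference in percentile was 100% repeated and its WT peak 73.7%. The part of repeated sequence in these values was not tested.

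The other genes within the clusters were mostly without a peak. Of 50 protein-coding genes between the first and last member of a cluster that are no histone genes, 5 had a WT Pol II peak, 4 a Qk-/- peak and none Qki-5. The shares of all protein-coding genes were 54.1%, 46.5% and 19.4%. The 36 vomeronasal receptor genes (Vmn1r) among the 50 had none of these peaks. Of the 14 others, 5 had a WT Pol II peak, 4 a Qk-/- peak and none Qki-5. The span of a cluster takes in the gaps between its blocks, so these genes need not lie among the histone genes. Zfp322a and Abt1 had 14.2-fold and 8.41-fold in WT, the iron regulator Hfe 8.09-fold and Zfp184 5.40-fold, and Trim17 shared the 33.6-fold peak of Hist3h2a. Outside the span, Bola1 shared the peak of Hist2h2ab, Hist2h2ac and Hist2h2be.

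Other genes of the histone supply were given by lists. To set beside their counts, 54.1% of all protein-coding genes had Pol II in WT and 46.5% in Qk-/- cells. For WT Qki-5 the share was 19.4%. Of 8 regulators of histone gene transcription, all had Pol II in both genotypes, with Npat at 7.06-fold and Hinfp, the activator of H4 genes, at 9.56-fold in WT and Yy1 at 35.7-fold. Qki-5 was called at Yy1 and Nfya. Of 14 genes for 3-prime processing and decay of histone mRNA, 14 were bound in WT and 13 in Qk-/- cells, with the stem-loop binding protein gene Slbp at 30.8-fold and 23.8-fold. The gene called in WT alone was Lsm11, which encodes a protein of the U7 snRNP, with 5.40-fold.

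The histone genes listed as replication-independent were bound in 11 of 11 cases in both genotypes. They were grouped by name, and their 3-prime ends were not searched for the stem-loop. The WT fold was 66.5 at H3f3a, 62.8 at H3f3b and 58.9 at H2afx, in the range of the highest replication-dependent genes. Qki-5 was called at 3 of them, H3f3a, H3f3b and H2afj. Of 8 chaperone genes 7 were bound in each genotype, and Nasp, whose product carries H3 and H4, had 34.5-fold in WT.

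DNA replication genes code for the enzymes and cyclins of S phase. Of 17, 15 had Pol II in WT and 6 in Qk-/- cells, with WT folds of 4.51 to 24.4 and a median of 9.58. Among those called in both were Pcna, Mcm4, Mcm7, Cdk2 and Pold1, and among those called in WT alone were Mcm2, Mcm5, Ccne1, Ccne2, Ccna2, Rrm1, Rrm2, Tyms and Pola1. For all protein-coding genes the Pol II shares were 54.1% in WT and 46.5% in Qk-/- cells. Of all those bound in WT, 85.7% were called again in Qk-/- cells. Of 8 mitosis genes 5 were bound in WT and 3 in Qk-/- cells. Whether these genes and the histone genes differ in what the knockout list keeps was not tested, and the WT folds of the replication genes were lower than those of most histone genes.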

How the data were processed

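The deposited files were 6 MACS2 narrowPeak lists, 1 per antibody and genotype, and the 4 input libraries had no peak list of their own. Tools listed in the submitters' processing notes were MACS2 2.1.2, Bowtie 1.2.2 and bcl2fastq, whereas the study's methods give Bowtie2 as the aligner. The treatment of reads with several matches is not given in the sources used here. In the deposited lists the authors gave each peak its fold enrichment over input at the summit (a ratio), the -log10 p-value and -log10 q-value, and a score that was 10 times the -log10 q-value cut to a whole number. Listed peaks passed the authors' q-value threshold of 0.05. The lists give no read totals, so depth is unknown.

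From these, peaks were joined to GENCODE M21 genes (GRCm38) with Python 3.11.15, pandas 2.3.3, numpy 2.4.6 and scipy 1.17.1, and plots were drawn with matplotlib 3.10.9. A gene counted as bound where a peak overlapped by at least 1 bp the 2 kb on either side of a TSS of a basic transcript, and its value was that of the peak with the highest fold. Blocks were split at gaps over 100 kb, and genes whose start codons faced away from each other within 1 kb were taken as head-to-head pairs. The joins were tested on simulated data. With 1 library per group no p-value was computed. Alternatives were the q-value and fold minimum, window, overlap rule, TSS set, nearest gene, ranking and match between genotypes. Peaks over the TSS, peaks over the start codon and the removal of repeated sequence were chosen after seeing the data. All histone genes, the listed genes and the neighbours could be named, with the 5 highest per list, exceptions to a count and head-to-head pairs in detail. The histone genes and the lists were chosen with earlier results of these data known. Some genes of the lists are counted but their values are not reported here.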

Additional observations from a re-analysis of the deposited data

How the results depend on the processing

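No paired analysis was possible because each antibody and genotype had 1 library and no result came from a test. Of 99 recomputed values over 10 results, 87 stayed close to the reported value and 12 moved. The rule for close was loose, so this tally does not measure stability. It let pass WT Qki-5 genes falling from 22 to 15 with peaks over the TSS. Qk-/- Pol II genes falling from 63 to 43 by nearest TSS passed as well. Giving each peak to the nearest TSS only left 41 genes with WT Pol II and 13 with both WT Pol II and Qki-5, and 87.8% of the WT-bound genes were called in Qk-/- cells. With a fold of at least 5, 13 genes had WT Qki-5 and 13 had it with Pol II, from 9 distinct peaks. Without peaks of mostly repeated sequence, 11 genes had Qki-5 and 11 had it with Pol II, from 8 peaks, and 83.3% of the WT-bound genes were called in Qk-/- cells. That share was 88.3% with peaks over the TSS and 85.9% with peaks over the start codon. The nearest-TSS setting gives each peak to 1 gene and the others admit fewer peaks, both by construction, and any other cause was not tested. Over the alternatives the median percentile ran from 90.3 to 96.7 for WT Pol II and from 44.6 to 65.5 for Qki-5. The Qk-/- Qki-5 count was 0 in all 10, and these are among the values counted as close. Settings that mostly admit fewer peaks could hardly raise that count. No replicate error exists for any value, and differences in depth between the libraries cannot be told apart from differences between genotypes.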
